A study of Mus musculus with 8 samples.

Results

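The genes of the cytosolic ribosomal proteins were followed in RNA-sequencing of mouse hearts. They were taken as protein-coding genes with a symbol that starts with Rpl or Rps and a digit, together with Rplp0, Rplp1, Rplp2 and Rpsa, leaving out pseudogenes and the Rps6k kinases, with a level of at least 1 FPKM in 2 libraries or more. FPKM counts fragments after division by transcript length and library depth. Of 85 genes with such a symbol, 82 passed, out of 25929 genes listed and 14442 genes at that level. Of these, 33 encode proteins of the small 40S subunit and 47 proteins of the large 60S subunit. Rps19bp1 and Rpl7l1, which carry the symbol but are not known as core subunits, were kept and not assigned. The rule used the level alone and no comparison between groups.

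The ribosome joins a copy of nearly every one of these proteins to ribosomal RNA, so their mRNAs are made in similar amounts and are among the most abundant of any cell. Most of them start with a tract of pyrimidines, the TOP motif, through which mTOR complex 1 and the RNA-binding protein Larp1 set how much of them is translated. In heart and skeletal muscle, Rpl3l takes the place of its close relative Rpl3, which most other cells use.

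The hearts came from C57BL/6 wild-type (WT) mice and from fat-1 littermates, which carry a desaturase of Caenorhabditis elegans that turns n-6 into n-3 polyunsaturated fatty acids in their tissues. At 3 months of age mice of both genotypes underwent sham surgery or transverse aortic constriction (TAC), which loads the left ventricle with pressure, and the hearts were taken 8 weeks later. Each group (Fat1-Sham, Fat1-TAC, WT-Sham and WT-TAC) had 2 libraries, labelled as independent samples of ventricular tissue, whereas the methods name whole hearts. Which promoter drives the transgene is not given in the sources used here.

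Depth, recovered from the steps of the FPKM values, was 14163994 to 21218331 fragments a library. The 10 cardiomyocyte markers, such as Myh6 and Tnnt2, summed to 51528 to 68055 FPKM in 7 libraries and to 28173 FPKM in WT-TAC1. WT-TAC1 stood apart in other ways as well. Its 10 thymocyte and T cell markers were all above 0 and summed to 2234 FPKM, against 1.26 to 4.35 FPKM elsewhere, where 1 to 4 of the 10 were at 0. Rag1, which cuts antigen receptor genes in developing lymphocytes, was at 252 FPKM in WT-TAC1, at 0.0590 FPKM in WT-TAC2 and at 0 in the other 6 libraries. Markers of airway epithelium summed to 1739 FPKM in WT-TAC1, 3958 FPKM in WT-TAC2 and 82.5 FPKM in Fat1-Sham1, and to 2.47 to 5.54 FPKM in the other 5 libraries. The median over the members in each comparison with WT-TAC is therefore also given without WT-TAC1. Differences of the other gene lists are given with both WT-TAC libraries, as are those of single genes unless stated.

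Some members cannot be told apart by their reads. Ribosomal protein genes have many processed copies. For each of the 82 members the longest annotated protein-coding transcript was searched. Only 3 held no stretch of 50 bases that also occurs in a transcript of another gene. The median share of such stretches was 41.0%, and 29 members had more than 50% of their transcript in common with other genes. All transcript shares given here are of that transcript, and shorter ones of the member were not searched. For Rps15a it had 5179 bases, and the share was 6.28%. The closest pair was Rps27, a 40S protein gene with introns (chr3:90212522-90213651, minus strand, GRCm38), and the intronless Rps27rt (chr9:114982366-114982739, minus strand). Their coding sequences were the same at 252 of 252 bases, so that the line below, read from the GENCODE transcripts, is the coding sequence of either gene, without its stop codon.

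Rps27 and Rps27rt: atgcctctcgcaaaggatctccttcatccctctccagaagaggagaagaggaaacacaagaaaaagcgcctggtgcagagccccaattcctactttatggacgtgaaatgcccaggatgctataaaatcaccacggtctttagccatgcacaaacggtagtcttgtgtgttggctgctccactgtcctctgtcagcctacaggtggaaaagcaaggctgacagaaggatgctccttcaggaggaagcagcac

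The start sites showed the pyrimidine tract. RefSeq promoter entries (GRCm38.p6) were matched by symbol for 62 of the 82 members. A C followed by at least 5 further C or T bases on the coding strand within 20 bases of the start was found in 41 of the 62 members (66.1%), in 25 of 68 mitochondrial ribosomal protein genes (36.8%) and in 35.0% of all genes tested that had an entry. CCGGAAG on either strand, anywhere in the 300 bases, was found in 25 members (40.3%), in 25 mitochondrial ribosomal protein genes (36.8%) and in 19.4% of all genes tested. TATAAA on either strand in the 50 bases before the start was found in 1 member (1.61%) and in 2.59% of all genes tested. The windows below show the tract, in capitals, in members that the results turn on, and Rpl3l, in which there was none. Each line holds 30 bases before the start and 20 from it on, so that the start is base 31.

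Rps6, chr4:86857348-86857397, minus strand: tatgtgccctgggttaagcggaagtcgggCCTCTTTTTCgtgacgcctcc
Rpl35, chr2:39005112-39005161, minus strand: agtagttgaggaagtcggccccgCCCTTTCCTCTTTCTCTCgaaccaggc
Rplp2, chr7:141447621-141447670, plus strand: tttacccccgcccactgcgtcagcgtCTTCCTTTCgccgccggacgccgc
Rpl22l1, chr3:28805478-28805527, plus strand: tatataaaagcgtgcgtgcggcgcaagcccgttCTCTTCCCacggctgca
Rps27, chr3:90213629-90213678, minus strand: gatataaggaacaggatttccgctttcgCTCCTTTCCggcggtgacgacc
Rps27rt, chr9:114982720-114982769, minus strand: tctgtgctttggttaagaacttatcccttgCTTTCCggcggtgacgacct
Rpl3l, chr17:24727796-24727845, plus strand: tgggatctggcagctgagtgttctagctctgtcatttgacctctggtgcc

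In Rps6, Rpl35, Rplp2 and Rps27 the tract spanned the start, in Rps27rt it began at the start, and in Rpl22l1 it lay after it.

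The members were abundant, with a wide range of levels. Their mean over the 8 libraries had a median of 267 FPKM, against 9.22 FPKM over all genes tested and 33.6 FPKM over the 77 mitochondrial ribosomal protein genes, and the median member ranked at the percentile 97.8 of all genes tested. The median was 313 FPKM in the 40S and 221 FPKM in the 60S genes. Rplp1 and Rplp0, which form the stalk that binds elongation factors, and Rps14 were highest, at means of 828, 765 and 657 FPKM. Rpl22l1, Rpl12 and Rpl13a were lowest, at 11.9, 10.4 and 10.1 FPKM. Of their transcript stretches 57.3%, 49.0% and 57.4% were shared with other genes, and the part of read assignment in these levels was not tested. The lowest value of any member in any library was 5.59 FPKM, for Rpl22l1 in WT-Sham2, so that none passed the filter through a single group. The last gene inside it by mean was Rpl13a (6.65 to 27.8 FPKM). The 3 genes outside it were Rpl24 and Rpl36al, which reached 1 FPKM only in WT-TAC1 (1.94 and 1.18 FPKM), and Rpl39l, at 0.595 FPKM at most.

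**Figure D1:**
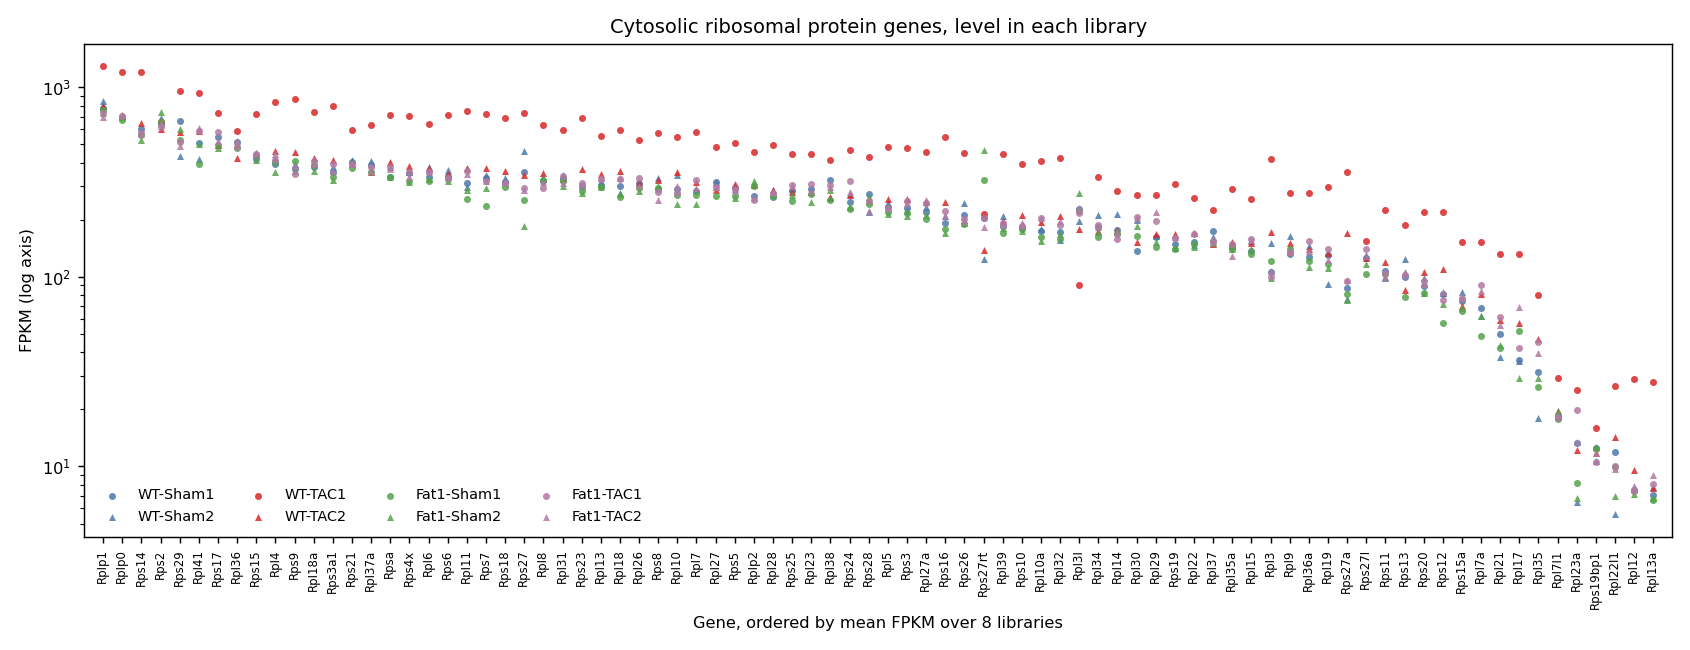
Level of each of the 82 genes (FPKM, log axis) in each of 8 libraries, ordered by the mean over the libraries, with circles for replicate 1 and triangles for replicate 2 of each group. WT-TAC1 (red circles) is the highest library for 79 genes.

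Outside WT-TAC1 the members varied little. The coefficient of variation over the other 7 libraries, which span all 4 groups, had a median of 8.46% over the members and of 15.9% over all genes tested. It was under 10% in 53 members. The members were far higher in level than most genes tested, and no set matched for level was compared. Rplp0, the scaffold of the stalk, was at 695 and 703 FPKM in WT-Sham, 717 FPKM in WT-TAC2, 674 and 696 FPKM in Fat1-Sham and 709 and 716 FPKM in Fat1-TAC, a coefficient of variation of 2.14%. Rps21 followed at 2.90%. The highest of the 10 members over 20% were Rps27rt (51.7%), Rpl23a (41.4%), Rps27a (34.0%), Rpl35 (31.3%), Rpl17 (30.7%), Rpl22l1 (29.5%) and Rps27 (27.8%). The share of their transcript stretches found in other genes ran from 40.1% for Rpl35 to 91.1% for Rps27rt. Rps6, with 84.6% shared, had a coefficient of variation of 4.41%. The part of read assignment in the variation of the members was not tested.

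In WT-TAC1 nearly the whole family was higher. The members made up 5.52% of the summed FPKM in WT-TAC1 and 2.65% to 3.04% in the other 7 libraries. Mitochondrially encoded genes took 11.7% of the fragments in WT-TAC1 and 19.3% to 27.6% in the other 7. Without these genes the members' share was 6.39% in WT-TAC1 and 3.58% to 3.98% in the other 7, with 3.86% in WT-TAC2. WT-TAC1 was the highest of the 8 libraries for 79 of 82 members (96.3%), as it was for 58.1% of all genes tested. Relative to the median of the other 7 libraries, WT-TAC1 was 1.96-fold higher at the median member, 2.07-fold over the 40S and 1.88-fold over the 60S genes, against 1.56-fold over all genes tested and 0.891-fold over the mitochondrial ribosomal proteins. In bulk samples such as these, a change in how many cells of a type were present and a change in RNA per cell cannot be told apart.

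The excess in WT-TAC1 was uneven. It was largest for Rps27a, which encodes ubiquitin joined to a 40S protein, at 4.07-fold, then for Rpl3 (3.88-fold), Rpl12 (3.84-fold), Rpl13a (3.62-fold) and Rpl17 (3.13-fold). It was 2.13-fold for Rps6, the substrate of the S6 kinases, 1.72-fold for Rplp0 and 1.52-fold for Rplp2. Rps27l, a relative of Rps27, was at 1.23-fold, Rpl36 at 1.18-fold and Rps2 at 1.02-fold. Rpl3l was the 1 member below the median of the other libraries, at 0.406-fold. The thymocyte marker sum and the cardiomyocyte marker sum moved with these values in the same library, as given above, and their part in the result was not tested.

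**Figure D2:**
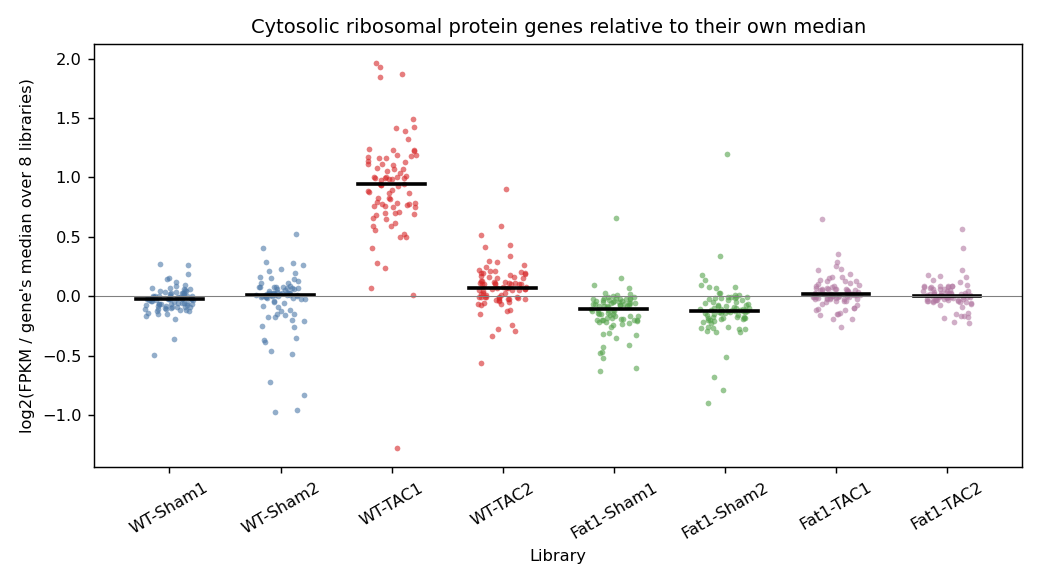
Each point is 1 of the 82 genes, as log2 of its FPKM over its own median across the 8 libraries, and the black bar is the median in that library. The bar is at 0.94 for WT-TAC1 and 0.07 for WT-TAC2, and ranges from -0.12 to 0.02 over the 6 libraries left.

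Whether pressure overload changed the family in wild-type hearts was asked by comparing WT-TAC with WT-Sham. Tests were made with limma on log2(FPKM + 1) over all 14442 genes, and calls required both an adjusted p (Benjamini-Hochberg) below 0.1 and a difference above 1.5-fold. No member was called higher and none lower, where 0.921% of all genes tested were called higher and 0.0138% lower. A per-gene linear model without moderation called no member either, here or in the comparisons that follow. By the unadjusted p under 0.05 with the same fold, 20 members were higher and 1 lower, against 22.7% and 1.11% of all genes tested, so that the members' share was close to the background. The median log2 difference was 0.50 over the members and 0.39 over all genes tested, and 79 of 82 members (96.3%) had a higher mean in WT-TAC, as had 79.3% of all genes tested. A permutation of 2 libraries against 2 is too small to bring any gene under 0.05.

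The difference between the groups was mostly that of WT-TAC1. In 44 of 82 members both WT-TAC libraries lay above both WT-Sham libraries, and in 1 member (Rpl3l) below, against 52.5% and 7.09% of all genes tested. Scaled by the median of ratios, these counts were 7 and 12 members, against 24.2% and 26.9% of all genes tested. Without the mitochondrially encoded genes they were 29 and 2, against 40.6% and 13%, and scaled to the cardiomyocyte markers 53 and 1, against 69.9% and 1.09%. WT-TAC1 on its own lay above both WT-Sham libraries in 80 members and was 1.5-fold above their mean in 71, against 69.3% and 47.8% of all genes tested. WT-TAC2 did so in 44 (53.7%) and 4 members (4.88%), below the 64.1% and 13.2% of all genes tested, and its median log2 difference from WT-Sham was 0.09 over the members and 0.21 over all genes tested. Without WT-TAC1, limma called 1 member higher, Rps27a, and none lower, against 0.137% and 0.0072% of all genes tested in that fit. Without WT-TAC2 it called 71 higher (86.6%) and 1, Rpl3l, lower, against 44% and 6.51% of all genes tested, with the spread of the lone library assumed to be that of the other groups. Airway markers were high in both WT-TAC libraries, as given above. Adipocyte markers summed to 386 and 490 FPKM in WT-Sham and to 857 and 1184 FPKM in WT-TAC, with 7 of 7 higher without overlap. B and plasma cell markers summed to 53.9 and 49.7 FPKM in WT-Sham and to 193 and 117 FPKM in WT-TAC. Of these, 8 of 8 were higher without overlap. Cardiomyocyte markers had a lower mean in WT-TAC in 10 of 10. In 5 of them the groups did not overlap, against 7.09% of all genes tested. The part of these markers in the result was not tested.

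Rps27a (chr11:29545846-29548109, minus strand) had the smallest p of the members. It was at 87.3 and 76.3 FPKM in WT-Sham, 355 and 170 FPKM in WT-TAC, 81.4 and 75.4 FPKM in Fat1-Sham and 95.3 and 96.6 FPKM in Fat1-TAC. Both WT-TAC libraries lay above the 6 others. The log2 difference of WT-TAC from WT-Sham was 1.58 ± 0.31 (SE, limma adjusted p = 0.113), and without WT-TAC1 it was 1.05 (limma adjusted p = 0.0623). A processed copy, Rps27a-ps2, named here after its values were seen, was at 147 and 143 FPKM in WT-Sham, 78 and 52.9 FPKM in WT-TAC, 139 and 88.1 FPKM in Fat1-Sham and 149 and 120 FPKM in Fat1-TAC. It was lowest in the libraries in which Rps27a was highest. Rps27a and its -ps copies together came to 235 and 219 FPKM in WT-Sham and 434 and 223 FPKM in WT-TAC. In Fat1-Sham the sum was 221 and 164 FPKM, and in Fat1-TAC 244 and 216 FPKM. It left out Gm8430, a listed processed pseudogene that shared 50.1% of the Rps27a stretches. For the sum, WT-TAC2 lay within the range of the WT-Sham libraries, and the log2 difference of WT-TAC from WT-Sham was 0.46 (limma adjusted p = 0.309).

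Rpl35, a 60S protein near the exit of the nascent chain, followed. It was at 31.6 and 18.1 FPKM in WT-Sham, 80.0 and 47.2 FPKM in WT-TAC, 26.3 and 29.4 FPKM in Fat1-Sham and 45.5 and 39.8 FPKM in Fat1-TAC. The TAC libraries lay above the sham libraries in either genotype. The log2 difference was 1.32 ± 0.32 (SE, limma adjusted p = 0.165) in WT and 0.60 ± 0.32 (SE, limma adjusted p = 1) in fat-1 hearts. Other members at the top of WT-TAC against WT-Sham were Rpl17 at a log2 difference of 1.24, Rpl22l1 at 1.15, Rpl3 at 1.07 and Rpl12 at 1.05. Summed with its -ps copies, Rpl17 came to 305 and 408 FPKM in WT-Sham and 738 and 391 FPKM in WT-TAC. For this sum WT-TAC2 lay within the range of the WT-Sham libraries. The same sum for Rpl3 was 122 and 174 FPKM in WT-Sham and 480 and 195 FPKM in WT-TAC, without overlap. At the other end were Rpl3l at -0.73, Rps2 at -0.08, Rpl36 at -0.02, Rps27rt at 0.11 and Rps27l at 0.13. Changing the scaling of the libraries turned the sign of Rps2, Rpl36 and Rps27rt.

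Rpl3 and Rpl3l differed from their WT-Sham levels with opposite signs in WT-TAC. Rpl3l (chr17:24727820-24736143, plus strand) was at 229 and 198 FPKM in WT-Sham, 90.5 and 179 FPKM in WT-TAC, 223 and 277 FPKM in Fat1-Sham and 216 and 230 FPKM in Fat1-TAC. Rpl3 (chr15:80077791-80091868, minus strand) was at 106 and 151 FPKM in WT-Sham, 417 and 172 FPKM in WT-TAC, 122 and 99.1 FPKM in Fat1-Sham and 100 and 107 FPKM in Fat1-TAC. Both WT-TAC libraries were the lowest of the 8 for Rpl3l and the highest of the 8 for Rpl3. Rpl3l made up 68.2% and 56.7% of the pair in WT-Sham, 17.8% and 51.0% in WT-TAC, 64.6% and 73.7% in Fat1-Sham and 68.3% and 68.2% in Fat1-TAC. Their coding sequences were 74.3% identical and shared no stretch of 50 bases, and Rpl3l shared none with any other gene, whereas Rpl3 shared 85.6% of its transcript with other genes, most of it with the pseudogene Rpl3-ps1.

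Between WT-TAC and WT-Sham the log2 difference was -0.73 ± 0.31 (SE, limma adjusted p = 0.181) for Rpl3l and 1.07 ± 0.39 (SE, limma adjusted p = 0.176) for Rpl3. Without WT-TAC1 these were -0.24 (limma adjusted p = 0.443) and 0.44 (limma adjusted p = 0.348). Between Fat1-TAC and WT-TAC they were 0.80 ± 0.31 (SE, limma adjusted p = 0.165) and -1.36 ± 0.39 (SE, limma adjusted p = 0.156). Neither was called in any comparison. Between Fat1-TAC and Fat1-Sham both were within the spread of the libraries, at -0.16 and -0.08 on the log2 scale. The 10 cardiomyocyte markers had a median log2 difference of -0.54 between WT-TAC and WT-Sham and of 0.63 between Fat1-TAC and WT-TAC. All 10 had the same sign as Rpl3l in both comparisons. Their part in the values of Rpl3l and Rpl3 was not tested.

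**Figure D3:**
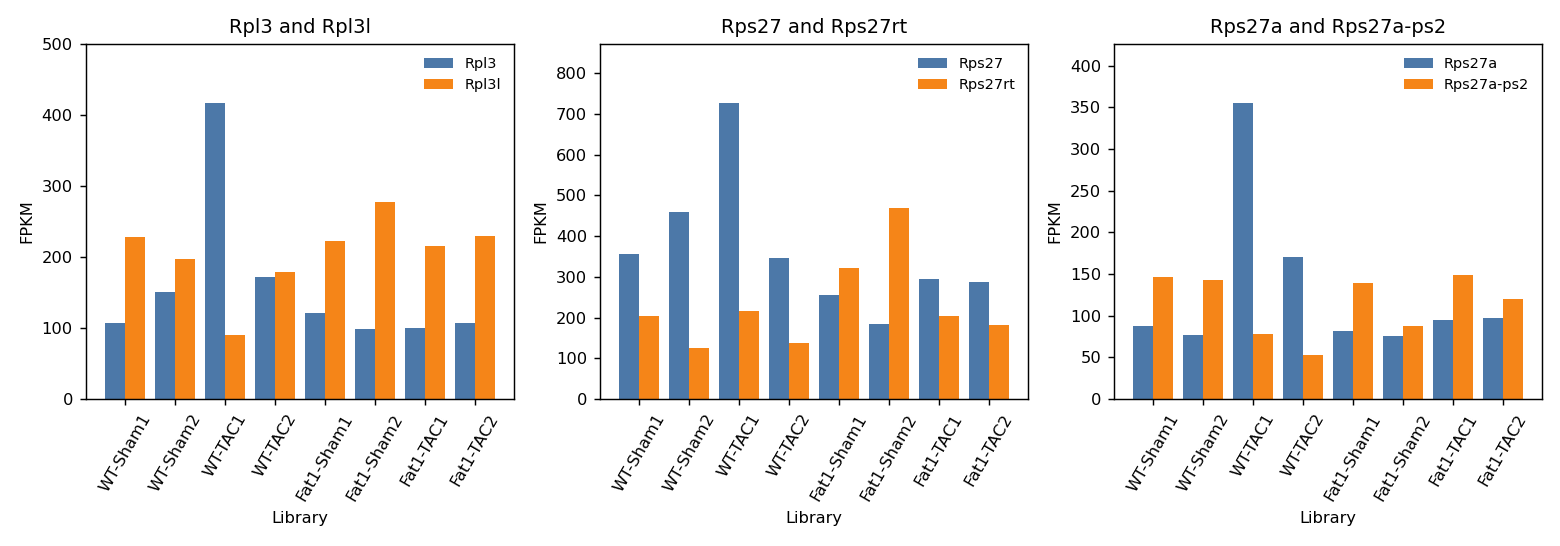
FPKM in each of 8 libraries for Rpl3 and Rpl3l, Rps27 and Rps27rt, and Rps27a and its processed copy Rps27a-ps2. Rpl3 is highest and Rpl3l lowest in WT-TAC1, Rps27rt exceeds Rps27 only in the Fat1-Sham libraries, and Rps27a exceeds its copy only in the WT-TAC libraries.

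Whether the transgene changed the family without overload was asked by comparing Fat1-Sham with WT-Sham. The differences do not use the WT-TAC libraries, whereas the standard errors and p-values come from all 8 libraries, and a fit of these groups alone called no member either. No member was called by limma, and neither was any gene tested (0% in each direction), whereas the model without moderation called 1 gene, which is no member. By the unadjusted p and fold, 1 member was higher (Rps27rt) and 1 lower (Rps27), against 0.201% and 0.692% of all genes tested. The median log2 difference was -0.10 over the members, -0.01 over all genes tested and 0.01 over the mitochondrial ribosomal proteins, and 67 of 82 members (81.7%) had a lower mean in Fat1-Sham, as had 53.5% of all genes tested. Both Fat1-Sham libraries lay below both WT-Sham libraries in 47 members and above in 1, against 16.5% and 15.5% of all genes tested. The 47 became 23, 54 and 54 when libraries were scaled by the median of ratios, without the mitochondrially encoded genes, or to the cardiomyocyte markers, against 15.5%, 21.8% and 21.3% of all genes tested. Blood markers moved with this comparison, since their sum was 10581 and 9666 FPKM in WT-Sham and 6198 and 4911 FPKM in Fat1-Sham, with both Fat1-Sham libraries lower for 4 of 5 of them and none at 0. Fibroblast markers summed to 613 and 982 FPKM in WT-Sham and to 595 and 541 FPKM in Fat1-Sham, with 5 of 6 lower without overlap. Macrophage markers summed to 284 and 342 FPKM in WT-Sham and to 253 and 268 FPKM in Fat1-Sham, with 4 of 6 lower without overlap. No marker of these was at 0, and the part of all of them in the result was not tested.

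Among the members lower in Fat1-Sham were Rps7, which binds the Mdm2 ubiquitin ligase, at a log2 difference of -0.36, and Rps12 at -0.34. Rps7 was at 333 and 344 FPKM in WT-Sham and at 235 and 295 FPKM in Fat1-Sham, and the groups did not overlap. Rpl5 and Rpl11, which bind Mdm2 together with the 5S RNA, had values of -0.13 and -0.16 on the same scale. The highest after Rps27rt were Rpl3l at 0.22, Rpl35 at 0.21 and Rplp2 at 0.11, with overlapping groups.

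Rps27 and Rps27rt accounted for the largest differences in either direction. Rps27rt was at 205 and 124 FPKM in WT-Sham, 215 and 139 FPKM in WT-TAC, 323 and 469 FPKM in Fat1-Sham and 204 and 183 FPKM in Fat1-TAC. Rps27 was at 355 and 459 FPKM in WT-Sham, 727 and 345 FPKM in WT-TAC, 255 and 185 FPKM in Fat1-Sham and 294 and 287 FPKM in Fat1-TAC. Fat1-Sham had the highest libraries for Rps27rt and the lowest for Rps27, with no overlap with any other group.

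The log2 difference of Fat1-Sham from WT-Sham was 1.28 ± 0.32 for Rps27rt and -0.89 ± 0.35 for Rps27 (SE, limma adjusted p = 1 for both). The pair together, whose coding sequence is the line shown above, came to 560 and 584 FPKM in WT-Sham and 578 and 653 FPKM in Fat1-Sham, with overlapping groups. The log2 difference of the sum was 0.10 (limma adjusted p = 1), so that the direction seen for Rps27 turned. How the counting divided the fragments of the shared sequence is not given in the sources used here.

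In the fat-1 hearts, Fat1-TAC was compared with Fat1-Sham. Here too the WT-TAC libraries enter the standard errors and p-values but not the differences, and a fit of these groups alone called no member. No member was called by limma in either direction, where 0.00692% of all genes tested were called higher and 0% lower. By the unadjusted p and fold 1 member was higher, Rpl23a, and 1 lower, Rps27rt, against 1.33% and 0.533%. The median log2 difference was 0.15 over the members, 0.13 in the 40S and 0.16 in the 60S genes, against 0.02 over all genes tested and 0.03 over the mitochondrial ribosomal proteins. Both Fat1-TAC libraries lay above both Fat1-Sham libraries in 57 of 82 members (69.5%) and below in 9, against 26.8% and 21.5% of all genes tested. Scaled by the median of ratios, without the mitochondrially encoded genes, or to the cardiomyocyte markers, 35, 60 and 37 members lay above, against 22.5%, 32.5% and 23.3% of all genes tested.

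Thymocyte markers summed to 1.26 to 2.53 FPKM in these 4 libraries. Adipocyte markers, none of 7 at 0, summed to 511 and 281 FPKM in Fat1-Sham and to 257 and 510 FPKM in Fat1-TAC. Airway markers summed to 82.5 and 2.94 FPKM in Fat1-Sham and to 2.47 and 2.82 FPKM in Fat1-TAC. Without overlap, 4 of 10 cardiomyocyte markers were higher and 4 lower, and 2 of 6 fibroblast markers were higher and 3 lower. Of 6 macrophage and 5 blood markers, 2 each were lower without overlap. The part of all these markers in the result was not tested.

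Few single members stood out. Rpl23a was at 8.18 and 6.79 FPKM in Fat1-Sham and at 19.9 and 13.4 FPKM in Fat1-TAC, a log2 difference of 1.04 ± 0.42 (SE, limma adjusted p = 1). Rpl7a was at 49.0 and 61.9 FPKM in Fat1-Sham and at 90.7 and 84.1 FPKM in Fat1-TAC, a log2 difference of 0.66 ± 0.28 (SE, limma adjusted p = 1). Rpl29 was at 144 and 153 FPKM in Fat1-Sham and at 198 and 220 FPKM in Fat1-TAC, a log2 difference of 0.49 ± 0.22 (SE, limma adjusted p = 1). In all of these the groups did not overlap. For Rpl23a, 82.6% of the transcript was shared with other genes, and for Rpl7a 81.2%. Summed with its -ps copies, Rpl23a came to 64.4 and 52.9 FPKM in Fat1-Sham and to 66.8 and 59.8 FPKM in Fat1-TAC, with overlapping groups. The same sum for Rpl7a was 76.0 and 89.2 FPKM in Fat1-Sham and 111 and 108 FPKM in Fat1-TAC, without overlap.

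Rps27rt and Rplp2 were lowest in this comparison, at -1.01 and -0.27, followed by Rps29 at -0.17. Rplp2, the partner of Rplp1 in the stalk, was at 301 and 319 FPKM in Fat1-Sham and at 254 and 262 FPKM in Fat1-TAC, without overlap. Its partner Rplp1 had a log2 difference of -0.06 and the scaffold Rplp0 of 0.06. Rpsa, a 40S protein also known as a laminin receptor, had a value of 0.15, Rps19, which is mutated in Diamond-Blackfan anaemia, of 0.19, and Rpl11 of 0.38. Rps6 and Rpl4 had values of 0.05 and 0.17. The comparisons of Fat1-Sham with WT-Sham and of Fat1-TAC with Fat1-Sham share the Fat1-Sham libraries.

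**Figure D4:**
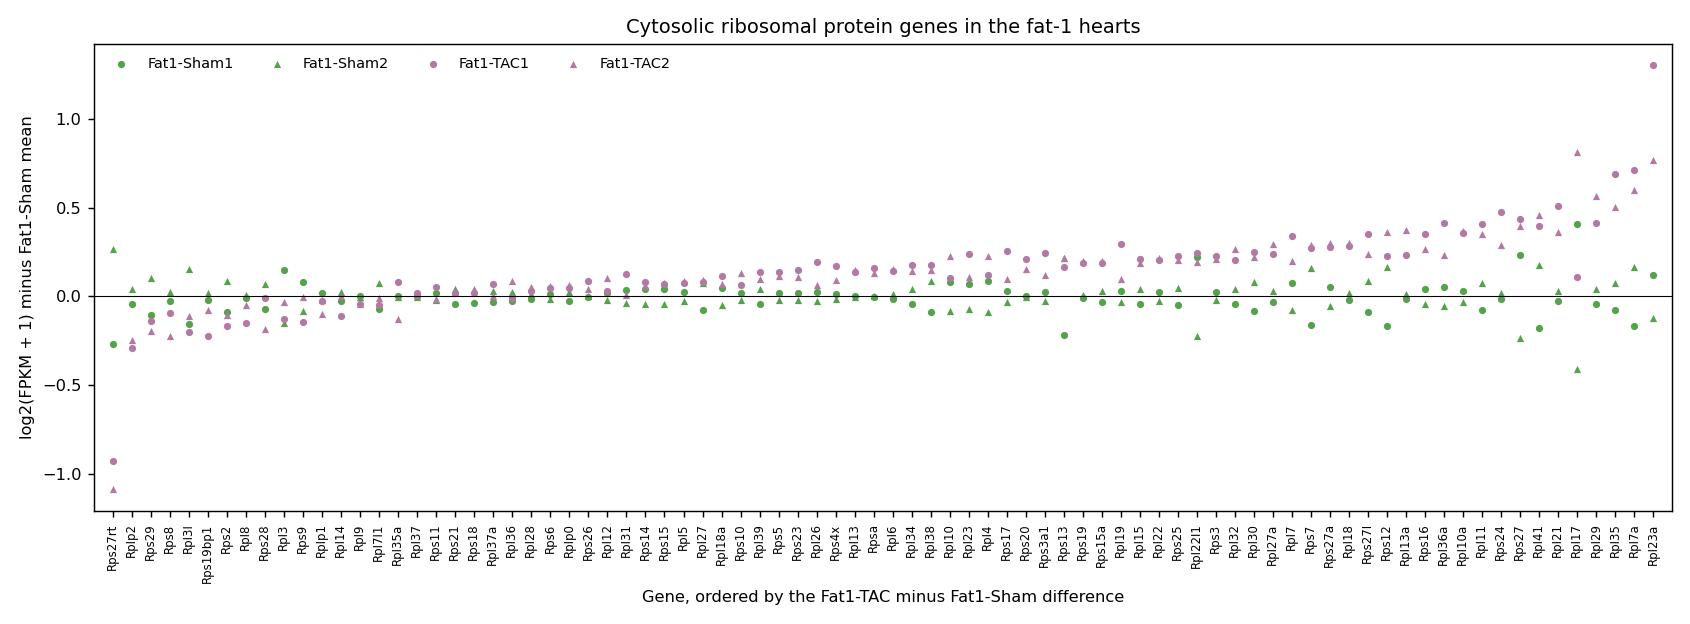
For each of the 82 genes, log2(FPKM + 1) in the 2 Fat1-Sham (green) and 2 Fat1-TAC (purple) libraries minus the Fat1-Sham mean, ordered by the difference between the groups. Both purple points lie above both green points in 57 genes and below in 9.

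Whether the transgene changed the family under overload was asked by comparing Fat1-TAC with WT-TAC. No member was called by limma, where 0.0346% of all genes tested were called higher and 1.39% lower. By the unadjusted p and fold 1 member was higher, Rpl3l, and 12 were lower, against 1.72% and 23.5% of all genes tested. The median log2 difference was -0.49 over the members and -0.40 over all genes tested. Both Fat1-TAC libraries lay below both WT-TAC libraries in 44 members and above in 1, against 57.1% and 9.33%. Scaled by the median of ratios, 7 members lay below and 16 above, against 26% and 29.4% of all genes tested. Without the mitochondrially encoded genes 20 lay below and 3 above, against 43.0% and 16.5%, and scaled to the cardiomyocyte markers 65 lay below and 1 above, against 81.8% and 1.15%. Without WT-TAC1 the median was -0.06 over the members and -0.19 over all genes tested, and limma called no member, against 0.166% of all genes tested lower and 0.0144% higher. Without WT-TAC2 it called 69 members lower and 1 higher, against 46.1% and 7.72% of all genes tested in that fit. Markers of other cells were also lower in Fat1-TAC than in WT-TAC without overlap, namely 10 of 10 of airway, 8 of 8 of B and plasma cells, 6 of 6 of fibroblasts, 6 of 6 of macrophages and 6 of 7 of adipocytes. Fibroblast markers summed to 1024 and 1012 FPKM in WT-TAC and to 568 and 578 FPKM in Fat1-TAC. Macrophage markers summed to 532 and 413 FPKM in WT-TAC and to 261 and 242 FPKM in Fat1-TAC. Cardiomyocyte markers went the other way, with 10 of 10 at a higher mean in Fat1-TAC. Of these 10, 7 lay higher without overlap, against 9.33% of all genes tested. The part of these markers in the result was not tested.

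Rpl3 and Rps27a were lowest in Fat1-TAC, at log2 differences of -1.36 and -1.35, then Rpl12 at -1.03 and Rps12 at -0.97. For Rps12 the values were 219 and 110 FPKM in WT-TAC and 75.2 and 82.7 FPKM in Fat1-TAC, and the groups did not overlap. Highest were Rpl3l at 0.80, Rps27rt at 0.16 and Rpl30 at 0.02.

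The interaction asks whether the TAC difference of the fat-1 hearts departed from that of the WT hearts. No member was called by limma, where 0.00692% of all genes tested were called positive and 0.0623% negative. By the unadjusted p and fold no member was positive and 2 were negative, Rps27a at -1.29 and Rps27rt at -1.12, against 0.609% and 6.38% of all genes tested. The median was -0.39 over the members and -0.37 over all genes tested. Without WT-TAC1 the median over the members was 0.02, and without WT-TAC2 it was -0.81, with 63 members called negative and 1 positive, against 39.3% and 6.43% of all genes tested in that fit. Rpl3 at -1.15 was also among the lowest, and Rpl3l at 0.58, Rpl23a at 0.19 and Rps27l at 0.17 were the highest.

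**Figure D5:**
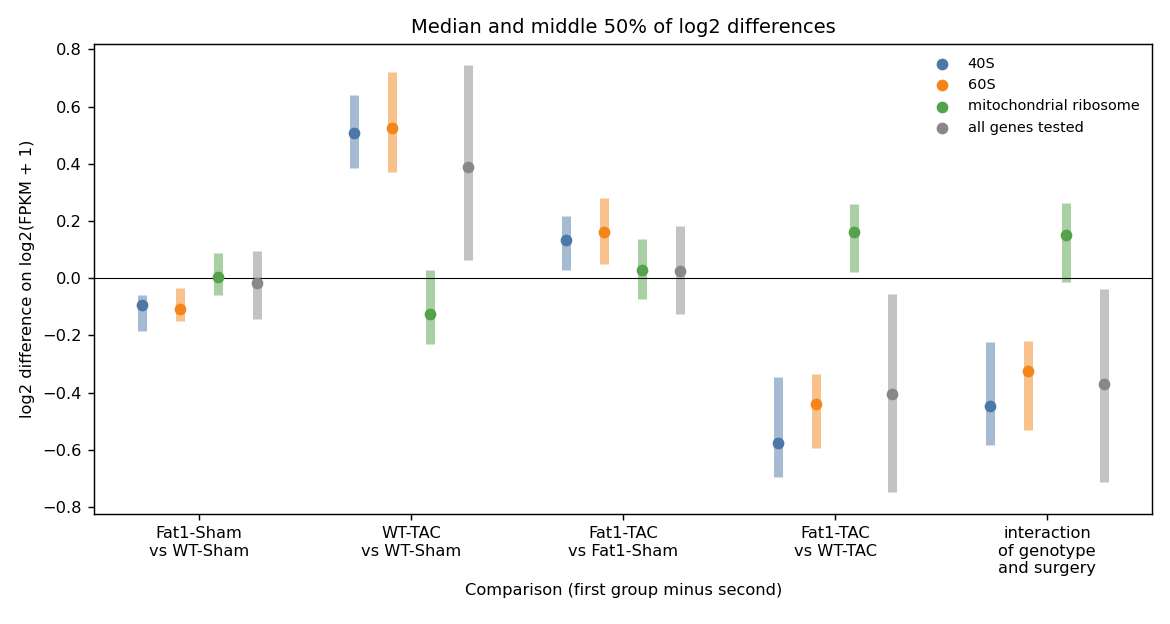
Median (point) and middle 50% (bar) of the log2 differences on log2(FPKM + 1) for the 40S, 60S and mitochondrial ribosomal protein genes and all genes tested, in the 4 comparisons and the interaction. The 40S, 60S and all-gene medians are 0.51, 0.53 and 0.39 for WT-TAC minus WT-Sham, -0.09, -0.11 and -0.01 for Fat1-Sham minus WT-Sham, and 0.13, 0.16 and 0.02 for Fat1-TAC minus Fat1-Sham.

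The paralogues with a suffix l or l1 were few. Rpl22l1, a relative of the RNA-binding Rpl22, was at 12 and 5.59 FPKM in WT-Sham, 26.7 and 14.2 FPKM in WT-TAC, 9.88 and 7.01 FPKM in Fat1-Sham and 10.1 and 9.68 FPKM in Fat1-TAC. Both WT-TAC libraries were the highest of the 8. The ratio of Rpl22l1 to Rpl22 was 0.0784 and 0.0380 in WT-Sham and 0.103 and 0.0841 in WT-TAC, lowest in WT-Sham2 and highest in WT-TAC1. Rps27l, which p53 activates, was at 103 to 140 FPKM outside WT-TAC1 and at 155 FPKM in it. Rpl7l1, a factor of 60S assembly, was at 17.7 to 19.7 FPKM and at 29.2 FPKM in WT-TAC1.

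Fau and Rack1, ribosomal protein genes that the symbols do not show, were close to the family. Fau, which encodes a ubiquitin-like protein joined to a 40S protein, was at 216 to 282 FPKM outside WT-TAC1 and at 542 FPKM in it. Rack1, a scaffold on the 40S subunit, was at 155 to 189 FPKM and at 370 FPKM. Neither was called in any comparison.

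The 18 genes of a list of translation factors and other genes with TOP mRNAs had no call in any of the 5 comparisons. Their medians were 0.37 for WT-TAC minus WT-Sham and -0.005 for Fat1-TAC minus Fat1-Sham. They summed to 4127 and 4812 FPKM in WT-Sham, 8401 FPKM in WT-TAC1 and 5018 FPKM in WT-TAC2. Eef1a1, which brings aminoacyl-tRNA to the ribosome, was at 671 and 1071 FPKM in WT-Sham, 2867 and 1246 FPKM in WT-TAC, 752 and 518 FPKM in Fat1-Sham and 643 and 726 FPKM in Fat1-TAC. Both WT-TAC libraries were the highest, and the log2 difference from WT-Sham was 1.16 ± 0.42 (SE, limma adjusted p = 0.176). Eef2, the translocase, had a value of 0.32 and Npm1, a nucleolar chaperone, of 0.74 in the same comparison. Tpt1 was the highest of the list at a mean of 1347 FPKM and Eif3l the lowest at 36.7 FPKM.

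Of 30 assembly factors, 29 were matched and tested and none was called. Riok2, a kinase of 40S maturation, was not analysed here. The median log2 difference was 0.46 for WT-TAC minus WT-Sham, beside 0.39 over all genes tested. There 28 of the 29 had a higher mean, beside 79.3% of all genes tested. For Fat1-TAC minus Fat1-Sham the median was -0.03, and 10 had a higher mean beside 54.5% of all genes tested. The factors summed to 546 and 561 FPKM in WT-Sham, 1124 FPKM in WT-TAC1 and 593 FPKM in WT-TAC2. Ncl, which binds nascent ribosomal RNA, was the highest of the list, at 86.0 to 97.6 FPKM outside WT-TAC1 and at 209 FPKM in it, and Rrp9 was the lowest, at a mean of 6.12 FPKM.

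Of RNA polymerase I, its factors, Myc and Mycn, 14 genes, none was called. The medians were 0.48 for WT-TAC minus WT-Sham and 0.05 for Fat1-TAC minus Fat1-Sham. Their sum was 177 and 183 FPKM in WT-Sham, 343 FPKM in WT-TAC1 and 205 FPKM in WT-TAC2. Ubtf, which opens ribosomal DNA for the polymerase, was at 29.3 and 29.6 FPKM in WT-Sham, 79.7 and 39.5 FPKM in WT-TAC, 35.4 and 32.3 FPKM in Fat1-Sham and 28.8 and 33.6 FPKM in Fat1-TAC, highest in both WT-TAC libraries. Myc was at 18.2 FPKM in WT-TAC1 and at 1.26 to 2.59 FPKM in the other 7. Polr1d was highest at a mean of 43.5 FPKM and Mycn lowest at 2.48 FPKM.

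Of mTOR complex 1 and the control of TOP mRNAs, 15 genes, none was called, with medians of 0.38 for WT-TAC minus WT-Sham and -0.09 for Fat1-TAC minus Fat1-Sham. Their sum was 543 and 557 FPKM in WT-Sham, 691 FPKM in WT-TAC1 and 614 FPKM in WT-TAC2. Mtor was at 21.7 and 22 FPKM in WT-Sham, 27.3 and 29.0 FPKM in WT-TAC, 24.5 and 24.9 FPKM in Fat1-Sham and 18.1 and 20.7 FPKM in Fat1-TAC. The WT-TAC libraries were the highest and the Fat1-TAC libraries the lowest of the 8. WT-TAC2, not WT-TAC1, was the higher of the pair. The log2 difference of Fat1-TAC was -0.52 ± 0.15 from WT-TAC (SE, limma adjusted p = 0.155) and -0.34 ± 0.15 from Fat1-Sham (SE, limma adjusted p = 1). Larp1, which holds TOP mRNAs, was lower in Fat1-TAC than in Fat1-Sham by 0.42 on the log2 scale without overlap (limma adjusted p = 1), and Rps6kb1, an S6 kinase, had a value of 0.08. Akt1 was highest at a mean of 208 FPKM and Mlst8 lowest at 2.07 FPKM.

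The mitochondrial ribosomal proteins, encoded in the nucleus and built into another ribosome, did not follow the cytosolic ones. Of 77 genes, WT-TAC1 was the highest library in 13 and the lowest in 38. Their median log2 difference was -0.12 for WT-TAC minus WT-Sham and 0.16 for Fat1-TAC minus WT-TAC, and none was called. Mrps21 was the highest at a mean of 226 FPKM, with 167 FPKM in WT-TAC1 and 201 to 274 FPKM elsewhere, and Mrps30 the lowest at 4.99 FPKM.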

How the data were processed

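FPKM values of 25929 genes, deposited by the authors, covered 8 libraries of ventricular tissue, 2 in each of 4 groups. The submitters' processing notes name HISAT2 and the builds mm10 and GRCm38, and the library kit does not mark strand. The counting program and all versions are not given in the sources used here. After removing 4 blank lines, symbols, gene types and coordinates were added by Ensembl identifier from GENCODE M21 (GRCm38), and 25873 genes had a symbol. Depth was recovered from the steps that whole fragments leave in low FPKM values.

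Values were transformed as log2(FPKM + 1), and fold changes on this scale understate those of low genes. The 14442 genes with 2 or more libraries at 1 FPKM or above were tested with limma 3.58.1 (R 4.3.3), lmFit and eBayes with a trend, over 4 group means and all 8 libraries, with Benjamini-Hochberg adjustment over all of them. Calls needed an adjusted p under 0.1 and a change over 1.5-fold. P-values measure the spread between labelled samples. The fit was tested on simulated data with the same spread in every group, which held no library set apart as WT-TAC1 is. The members and lists were chosen with earlier results of these data known, so counts over them are descriptions.

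Genes were named by rule: paralogues, stalk and well-known members, the 3 highest and 3 lowest differences of each comparison, and extremes of level in each list. Rpl29, Rps21 and others beyond it were chosen after their values were seen. Fragments of near-identical copies cannot be assigned with certainty. A sum of each member with its listed pseudogenes named by its symbol and -ps, and of Rps27 with Rps27rt, was added after seeing the data. Copies under other names, such as Gm8430 for Rps27a, were left out of the sums. Alternatives were other scalings, filters, pseudocounts, a replicate block, the unmoderated test and leaving out each library. A listed gene outside the symbol rule is not reported here.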

Additional observations from a re-analysis of the deposited data

How the results depend on the processing

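Under 11 alternatives other than leaving out a library, limma or the per-gene test without moderation called no member in any comparison, and none of the medians of the members changed sign except that of the interaction. The scaling mattered most. Scaled by the median of ratios, which moved the median of all genes tested in WT-TAC against WT-Sham from 0.39 to -0.01, the median of the members was -0.060 in Fat1-Sham against WT-Sham, 0.027 in WT-TAC against WT-Sham, 0.10 in Fat1-TAC against Fat1-Sham, -0.018 in Fat1-TAC against WT-TAC and 0.035 in the interaction. Scaled to the cardiomyocyte markers the same values were -0.21, 1.03, 0.16, -1.11 and -0.89. Without the mitochondrially encoded genes the medians of both comparisons with Fat1-Sham were -0.13 and 0.19, and the Fat1-TAC against Fat1-Sham median was 0.18 with quantile normalization and 0.13 with copies summed. The cause of these shifts was not tested.

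Among the named members, signs turned in WT-TAC against WT-Sham for Rps27 (-0.17) and Rps27rt (-0.36) under the median of ratios, for Rps27rt (-0.013), Rps2 (0.084) and Rpl36 (0.048) under quantile normalization, for Rps27rt (-0.061) without mitochondrially encoded genes, and for Rps2 (0.44) and Rpl36 (0.50) under the cardiomyocyte scaling. That scaling also turned Rps27rt (-0.46) and Rpl30 (-0.60) in Fat1-TAC against WT-TAC and Rps27 (-0.40), Rps27l (-0.34) and Rpl23a (-0.31) in the interaction. Summing copies turned Rps27 in Fat1-Sham against WT-Sham (0.10), in Fat1-TAC against Fat1-Sham (-0.35) and in the interaction (-0.58), Rpl30 in Fat1-TAC against WT-TAC (-0.17) and Rpl23a in the interaction (-0.081).

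Leaving out each library in turn, the median of the members ranged from -0.12 to -0.093 in Fat1-Sham against WT-Sham, 0.089 to 0.95 in WT-TAC against WT-Sham, 0.12 to 0.15 in Fat1-TAC against Fat1-Sham, -0.90 to -0.063 in Fat1-TAC against WT-TAC and -0.81 to 0.017 in the interaction. Calls ranged from 0 to 71 higher and 0 to 1 lower in WT-TAC against WT-Sham, 0 to 1 higher and 0 to 69 lower in Fat1-TAC against WT-TAC, and 0 to 1 positive and 0 to 63 negative in the interaction, with the extremes set by the WT-TAC libraries. Ranges that crossed 0 were, in Fat1-Sham against WT-Sham, -0.46 to 0.046 for Rpl3, -0.15 to 0.038 for Rps27a and -0.18 to 0.59 for Rpl35. In WT-TAC against WT-Sham they were -0.23 to 0.84 for Rps27, -0.25 to 0.47 for Rps27rt and -0.26 to 0.22 for Rpl36. In Fat1-TAC against Fat1-Sham they were -0.23 to 0.067 for Rpl3 and -0.31 to 0.0015 for Rpl3l, and in Fat1-TAC against WT-TAC -0.15 to 0.48 for Rps27rt and -0.40 to 0.43 for Rpl30. In the interaction they were -0.43 to 0.64 for Rps27 and -0.31 to 0.69 for Rpl23a.

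With the replicate number as a block, 0 members were called in any comparison and the median in WT-TAC against WT-Sham was 0.50. Among all genes tested the block left 52 called higher there (133 without it) and 51 lower in Fat1-TAC against WT-TAC (201 without it). Same-numbered libraries deviated with correlations of -0.14 to 0.02, so the numbers were not taken as pairs. Over all settings that kept every library, limma or the per-gene test called 9 to 286 genes higher in WT-TAC against WT-Sham and 13 to 342 lower in Fat1-TAC against WT-TAC, with the fewest under the filter at a mean of 5 FPKM and under quantile normalization, and the most with no filter.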

Other observations

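Of 145 listed pseudogenes with a symbol of the family, 77 reached 1 FPKM in at least 2 libraries. Rpl17-ps10 was the highest, at 127 to 177 FPKM outside WT-TAC1 and at 330 FPKM in it. Rpl7a-ps11 was at 211 FPKM in WT-TAC1 and at 3.01 to 3.71 FPKM in the other 7 libraries. Together with its -ps copies, Rpl7a came to 402 FPKM in WT-TAC1 against 76.0 to 111 FPKM elsewhere. The copies named here were chosen after their values were seen.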
